A study of Mus musculus with 2 samples.

Results

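Complement and coagulation genes were studied in regenerating livers of WT and KO mice, where KO stands for PPARβ-null. Of 41 symbols listed by name, 40 could be compared, among 33224 gene symbols with a usable locus. They lay in 38 loci, since 7 of the 40 sat in a joint locus, to which 1 value was given for all of its genes. The remaining gene was C3, the protein on which all routes of complement activation meet. Its locus (chr17:57343397-57367559) was marked HIDATA, the mark for a locus with too many fragments to be estimated. It was listed at an FPKM of 1593 in the WT library and at 0 in the KO library, so it was not compared.

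The livers came from male C57BL/6 mice with an age of 4 months by the sample labels, and both genotypes had undergone partial hepatectomy (PH) 48 hr earlier by the paper's text. One group was wild type and the other carried the PPARβ-null genotype, which is not limited to hepatocytes by the labels. RNA-sequencing gave 1 library per genotype, and whether a library held RNA of a single mouse or of several is not given in the sources used here. There are no replicates, so no value carries an error between mice and no test of the genotypes was possible. Ppard, the targeted gene (chr17:28369699-28438414), stood at 2.67 FPKM in WT and 2.42 in KO liver. The value covers the whole locus and the sources used here do not name the deleted part, so it does not check the genotype, and every direction below rests on the sample labels.

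FPKM divides the fragments of a locus by its exon length and by the depth of the library, and is thus a level per length. From the lowest values of single-exon genes, a single fragment on 1 kb of transcript came to 0.0187 FPKM for WT and 0.0183 for KO. Fragments behind a gene were estimated from this, and they give the 95% counting interval of a ratio, which covers counting error only. Most genes were lower in the KO library. The median log2 difference of KO and WT was -0.25 over 15727 genes, of which 3959 were higher and 11768 lower in the KO library.

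Complement is a cascade of plasma proteases that marks cells for clearance and ends in a pore, the membrane attack complex. Coagulation is a related cascade in which thrombin turns fibrinogen into fibrin, with brakes such as protein C and with plasmin to dissolve the clot. Hepatocytes make most of these plasma proteins, while factor VIII, von Willebrand factor and tissue factor pathway inhibitor come largely from endothelial cells and the A chain of factor XIII from macrophages and megakaryocytes.

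Most of the complement and coagulation genes were higher in the KO library, by small ratios, whereas the mannose-binding lectin gene Mbl2 and the clotting inhibitor gene Tfpi were lower by more than 2-fold. Of 38 members whose mean FPKM reached 1, 24 (63.2%) were higher in the KO library, against 24.4% of 11723 genes under the same filter. Among members with a mean FPKM of 20 or more, 23 of 34 were higher, against 29.5% of 3151 genes. The ratio of KO to WT in these 34 ran from 0.473 to 1.54, and 19 of them were within 1.25-fold. More than 1.5-fold, 2 members were lower (Mbl2 and Tfpi), against 19.9% of all genes. The 2 members more than 1.5-fold higher, C2 and Cfb, share a single locus, and 4.2% of all genes passed this threshold. More than 2-fold, Mbl2 and Tfpi were again lower, against 8.69% of all genes, and no member was higher, against 1.77%. The 2 members below a mean FPKM of 1 were Cfd and F13a1.

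**Figure D1:**
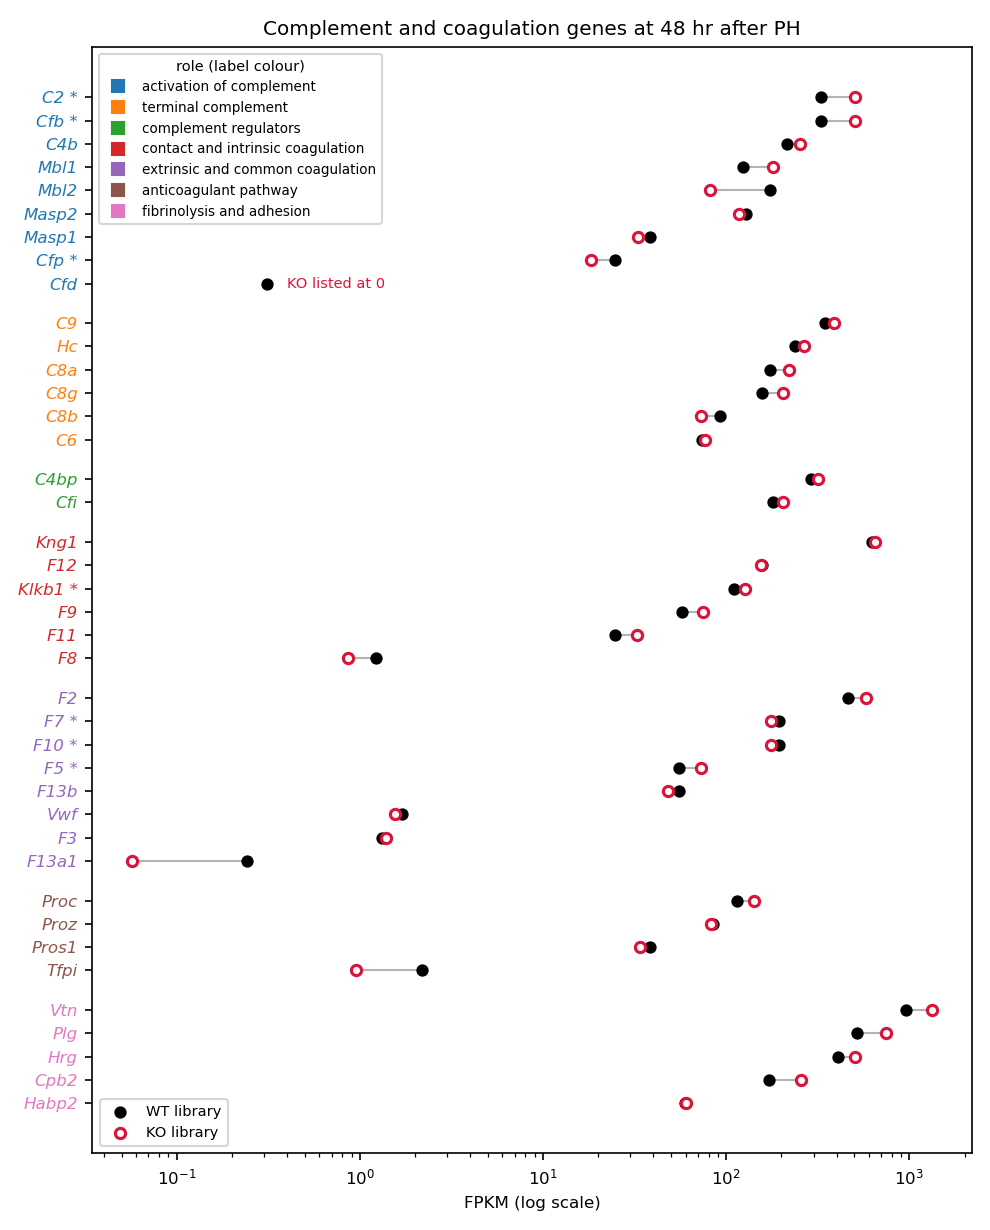
FPKM of each complement and coagulation gene in the WT library (filled) and the KO library (open) on a log scale, with label colours for the role of the gene and an asterisk for a joint locus. Levels ran from below 1 for F13a1 and Cfd to 1329 for Vtn in the KO library, and most pairs of points lie close together apart from those of Mbl2, Tfpi and F13a1.

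The median log2 difference of the 40 members was 0.10, with a range of -0.12 to 0.30 from the order of the genes, beside -0.25 over all genes and -0.19 over genes of mean FPKM 20 or more. These counts depend on how the libraries are scaled. Of 39 members with a value above 0 in both libraries, 24 were higher and 15 lower as deposited, 31 and 8 when the KO library was scaled by 1.15 to equal upper quartiles, and 33 and 6 when the ratios were centred on the median of expressed genes. These scalings shifted every log2 difference by 0.20 and 0.24. Under the centring, 33 of 38 members were higher, against 50% of all genes by construction. Mbl2 and Tfpi were still the members more than 1.5-fold lower, against 12% of all genes, but neither was more than 2-fold lower with centring or equal upper quartiles. With centring 10 members (C2, C8g, Cfb, Cpb2, F11, F5, F9, Mbl1, Plg and Vtn) were more than 1.5-fold higher, against 7.39%. Mbl2, Tfpi, Cfp (by its joint locus), C8b, F8 and F13a1 were lower in the KO library under each scaling. The other 9 members given as lower below turned higher under the centring.

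**Figure D2:**
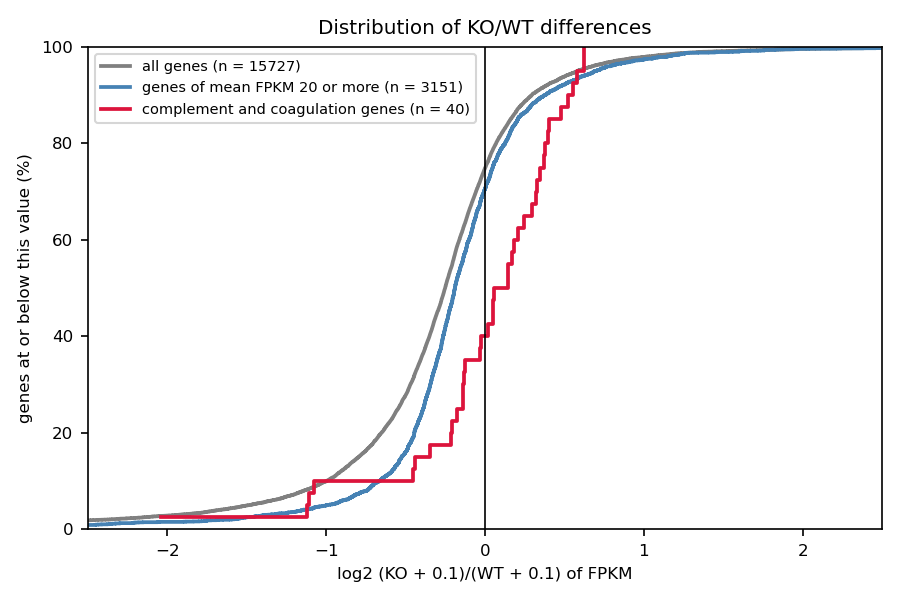
Share of genes at or below each log2 difference of KO and WT FPKM (with 0.1 added to both) for all genes, genes of mean FPKM 20 or more, and the complement and coagulation genes. The curve of the 40 members lies to the right of the others between -0.45 and 0.5, with medians of 0.10, -0.25 for all genes and -0.19 for the abundant genes.

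The genes that start complement were the most divided. The median log2 difference of the 9 measured genes was -0.13, with 4 higher and 5 lower in the KO library, and it turned positive with equal upper quartiles or centring, and to 0.059 without Cfd, the gene below a mean FPKM of 1. Mbl1 and Mbl2 encode the mannose-binding lectins A and C, which bind sugars on microbes and start the lectin route. Mbl1 (chr14:41955168-41998487) had 123 FPKM in WT and 181 in KO liver. Mbl2 (chr19:30307418-30314175) had 173 in WT and 81.9 in KO liver. In the WT library Mbl2 was the more abundant of the pair, and in the KO library Mbl1 was. The ratio of KO to WT was 1.47 for Mbl1 (counting interval 1.42 to 1.52), and the ratio of WT to KO was 2.11 for Mbl2 (2.04 to 2.19). Their coding sequences were identical at 69.9% of aligned bases. Neither shared an identical window of 100 bases with a protein-coding transcript of another gene. Matches with mismatches, and transcripts that do not code for protein, were not searched. The locus of Mbl1 reaches over Sftpd on the opposite strand, which had its own locus at 0.233 and 0.235 FPKM.

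The 120 bases before the start of each lectin gene are shown because the genes of this pair went in opposite directions. The sequences are from RefSeq (table of GRCm38.p6) and were placed on NCBIM37 by exact match, Mbl1 at chr14:41964625-41964744 and Mbl2 at chr19:30307298-30307417, both on the plus strand and read 5′ to 3′. Capitals mark the longest run of bases that both hold.
Mbl1: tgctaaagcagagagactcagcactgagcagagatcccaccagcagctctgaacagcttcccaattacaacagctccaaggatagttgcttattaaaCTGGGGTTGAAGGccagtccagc
Mbl2: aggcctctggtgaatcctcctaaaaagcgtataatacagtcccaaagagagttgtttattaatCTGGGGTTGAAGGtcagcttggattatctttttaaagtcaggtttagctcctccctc
The shared run is 13 bases long, and the best local match of these windows held 38 identical bases in 45 aligned columns.

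Masp1 and Masp2, the proteases that ride on these lectins, were slightly lower in the KO library. Masp1 had 38.2 FPKM in WT and 32.9 in KO liver, a ratio of WT to KO of 1.16. Masp2 had 128 and 117, a ratio of 1.09. The locus of Masp2 overlaps Tardbp on the opposite strand, a gene with its own locus at 54.7 and 36.9 FPKM, and whether the counting used strand is not given in the sources used here.

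C2 and Cfb encode the proteases of the classical and alternative convertases, the enzymes that cleave C3. They were measured as a single locus (chr17:34993319-35033789), which had 327 FPKM in WT and 504 in KO liver. This was the largest ratio of KO to WT among the members, 1.54, and how it divides between both genes cannot be told from the table. Of the 100-base windows of the longest transcript, 53.2% for C2 and 81.0% for Cfb also occur in the readthrough transcript Gm20547. C4b, the fourth component and a part of the classical convertase, had 214 and 254 FPKM, a ratio of 1.19. The loci of C2 with Cfb and of C4b lie 6.55 and 6.43 Mb from Ppard. The other genes within 10 Mb of Ppard had a median log2 difference of -0.26, with 92 of 384 higher in the KO library. The part of the chromosome in these ratios was not tested.

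Cfp and Cfd complete the group. Cfp encodes properdin, which stabilizes the alternative convertase and is made by leukocytes. It was measured with Elk1 and Uxt as a joint locus, at 24.8 FPKM in WT and 18.2 in KO liver. How this value divides among these genes cannot be told from the table. Cfd encodes factor D, the adipocyte protease that activates factor B. It was listed at 0.312 FPKM in the WT library, about 15.4 fragments, and at 0 in the KO library, so no ratio is given.

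Of the 6 genes of the terminal pathway 5 were higher in the KO library, with a median log2 difference of 0.16. Hc, the gene of C5, had 236 FPKM in WT and 265 in KO liver. C6, which joins C5b first, had 73.7 and 76.4, and C9, which forms the ring of the pore, had 348 and 385. These ratios were between 1.04 and 1.12. The chains of C8, which anchor the pore in the membrane, did not go together. C8a had 174 FPKM in WT and 221 in KO liver, a ratio of 1.27 (counting interval 1.25 to 1.29). C8g had 157 and 205, a ratio of 1.302 (1.27 to 1.34). C8b had 92.3 and 72.6, and was the lower one in the KO library, with a ratio of WT to KO of 1.27 (1.24 to 1.31). In the protein the chains are present in equal numbers, whereas in RNA the level of C8b was below that of C8a and C8g in both libraries, and the more so in the KO library.

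C8a (chr4:104488279-104549003) and C8b (chr4:104436691-104477153) are neighbours, with 11.1 kb between their loci, and their coding sequences were identical at 63.3% of aligned bases. Their upstream 120 bases (RefSeq, table of GRCm38.p6, placed on NCBIM37) are shown because these neighbouring genes differed in direction. C8a lies on the minus strand at chr4:104549004-104549123 and C8b on the plus strand at chr4:104438802-104438921. Capitals mark a match to GTTAAT, a short motif of the hepatocyte factor HNF1.
C8a: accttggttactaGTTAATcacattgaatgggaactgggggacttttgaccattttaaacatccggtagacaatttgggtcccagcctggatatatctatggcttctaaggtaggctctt
C8b: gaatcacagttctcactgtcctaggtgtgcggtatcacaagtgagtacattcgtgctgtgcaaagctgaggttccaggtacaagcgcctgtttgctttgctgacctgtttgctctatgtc
Within 250 bases before the start, on either strand, both genes held these letters.

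Over the 31 members with a RefSeq promoter, 9 (29.0%) held GTTAAT in the 250 bases before the start, on either strand, beside 7.49% of 27025 genes. The members were C4bp, C8a, C8b, Cfp, F13b, Habp2, Hc, Proz and Vtn, which include genes higher and lower in the KO library. A C/EBP motif, TTGCNNAA, was in 6 members (19.4%) and 10.8% of genes. A STAT motif, TTCNNNGAA, was in 4 members (12.9%) and 8.13% of genes, and a TATAAA box in 4 members (12.9%) and 14.3% of genes. A match describes the letters only and no binding was measured.

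The regulators Cfi and C4bp were close to level. Cfi, the protease that inactivates C3b and C4b, had 179 FPKM in WT and 204 in KO liver. C4bp, its cofactor, had 289 and 319. Both ratios of KO to WT were small, 1.14 and 1.10.

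In the contact and intrinsic group, which starts clotting on surfaces and leads to factor X, 4 of 6 genes were higher in the KO library and the median log2 difference was 0.13. Kng1, the gene of kininogen and the second most abundant member in the WT library, had 625 FPKM in WT and 648 in KO liver. F12, which starts the contact route, had 157 and 155, with a counting interval that holds a ratio of 1. Klkb1, the gene of plasma kallikrein, shared a locus with Cyp4v3 at 110 and 127 FPKM. F11 had 24.7 FPKM in WT and 32.5 in KO liver, a ratio of 1.32 (counting interval 1.26 to 1.38). F9, the protease lacking in haemophilia B, had 57.7 and 74.5, a ratio of 1.29 (1.26 to 1.33). F8, the cofactor of F9, went the other way at a much lower level, with 1.22 FPKM in WT and 0.865 in KO liver and a ratio of WT to KO of 1.41 (1.25 to 1.59). F11 and the Klkb1 locus, 4.61 kb apart, thus had ratios of KO to WT of 1.32 and 1.16. Kng1 shares 5.80% of its 100-base windows with Kng2, so its value is less certain. The locus of F8 overlaps Fundc2 on the opposite strand, which had its own locus at 3.25 and 2.81 FPKM. It also overlaps Gm6039 on that strand, with its own locus at 2.87 and 2.06 FPKM, above the values of F8. The loci of C8g and Habp2 overlap Fbxw5 and Nrap in the same way.

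Of the 8 genes of the extrinsic and common route 3 were higher and 5 lower in the KO library, with a median log2 difference of -0.13 that turned positive with equal upper quartiles or centring. F2 encodes prothrombin, the precursor of thrombin, and had 460.5 FPKM in WT and 579 in KO liver, a ratio of 1.26 (counting interval 1.24 to 1.27). F5, the cofactor of factor X, had 55.2 and 73.2 in a joint locus with Selp, which the authors' software marked as failed in its comparison. F3, the gene of tissue factor, had 1.33 and 1.38 with a counting interval of 0.819 to 1.33 for the ratio, which does not set its direction.

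F7 and F10, the proteases that tissue factor brings together, were measured as a single locus (chr8:13026004-13056676) at 193 FPKM in WT and 176 in KO liver, a ratio of WT to KO of 1.10. F7 was the sole member with a promoter that held a match to AGGNCANAGGNCA, a direct repeat with 1 spacer base, within 250 bases before the start. Such repeats are bound by PPAR with RXR and by HNF4, and 0.400% of the 27025 genes held a match on either strand. The 120 bases before F7 are shown for this reason (chr8:13025914-13026033 on NCBIM37, plus strand, RefSeq, table of GRCm38.p6), and capitals mark the match, which is on the minus strand.
F7: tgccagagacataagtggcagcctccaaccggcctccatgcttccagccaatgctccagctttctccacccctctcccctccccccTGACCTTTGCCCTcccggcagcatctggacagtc
The locus holding F7 was among the members with a ratio near 1, and no binding was measured here.

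Factor XIII cross-links fibrin, and its genes differed in level. F13b, the carrier chain made by hepatocytes, had 55.3 FPKM in WT and 47.8 in KO liver. F13a1, the catalytic chain (chr13:36959047-37142113), had 0.241 and 0.0572. These low values stand for about 50.0 and 12.1 fragments, and the ratio of WT to KO of 4.22 had a wide counting interval of 2.24 to 8.78. Vwf, the carrier of factor VIII and a platelet adhesion protein, had 1.70 and 1.55, with an interval of 0.989 to 1.21 for the ratio of WT to KO that holds 1.

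Among the anticoagulant genes 1 was higher and 3 were lower in the KO library, with a median log2 difference of -0.10 that also turned positive under these scalings. Proc, the gene of protein C, had 115 FPKM in WT and 142 in KO liver, a ratio of 1.23. Pros1, its cofactor protein S, had 38.3 and 34.0, and Proz, a cofactor in the inhibition of factor X, had 84.5 and 82.8. The difference of Proz was within counting error. Tfpi, the inhibitor of tissue factor with factor VII (chr2:84273012-84316932), had 2.17 FPKM in WT and 0.955 in KO liver, from about 461 and 207 fragments. Its ratio of WT to KO was 2.28 (counting interval 1.93 to 2.69). The 7 members that need vitamin K (F2, F7, F9, F10, Proc, Pros1 and Proz) had a median log2 difference of -0.030, with 3 higher and 4 lower. The single locus of F7 and F10 enters this median and count for each of them. Under the same scalings all 7 were higher.

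The genes of fibrinolysis and adhesion were all higher in the KO library, 5 of 5, with a median log2 difference of 0.48, the highest of the roles. Vtn, the gene of vitronectin and the most abundant member, had 955 FPKM in WT and 1329 in KO liver, a ratio of 1.39 (counting interval 1.38 to 1.40). Plg, the precursor of plasmin (chr17:12571001-12612322), had 516 and 741, a ratio of 1.43 (1.42 to 1.45). Cpb2, a carboxypeptidase that slows fibrinolysis, had 171 and 255, and its ratio of 1.496 (1.46 to 1.53) was just below the 1.5-fold threshold. Hrg, which binds plasminogen and heparin, had 406 and 507, a ratio of 1.25. Habp2, a hyaluronan-binding protease, had 59.4 and 60.2, within counting error. Plg, the precursor of the enzyme that dissolves clots, and Cpb2, which slows this, were thus both higher in the KO library. Plg lies on the chromosome of Ppard, 15.8 Mb away, and without C2, Cfb, C4b and Plg the median of the members was 0.052 in place of 0.10.

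**Figure D3:**
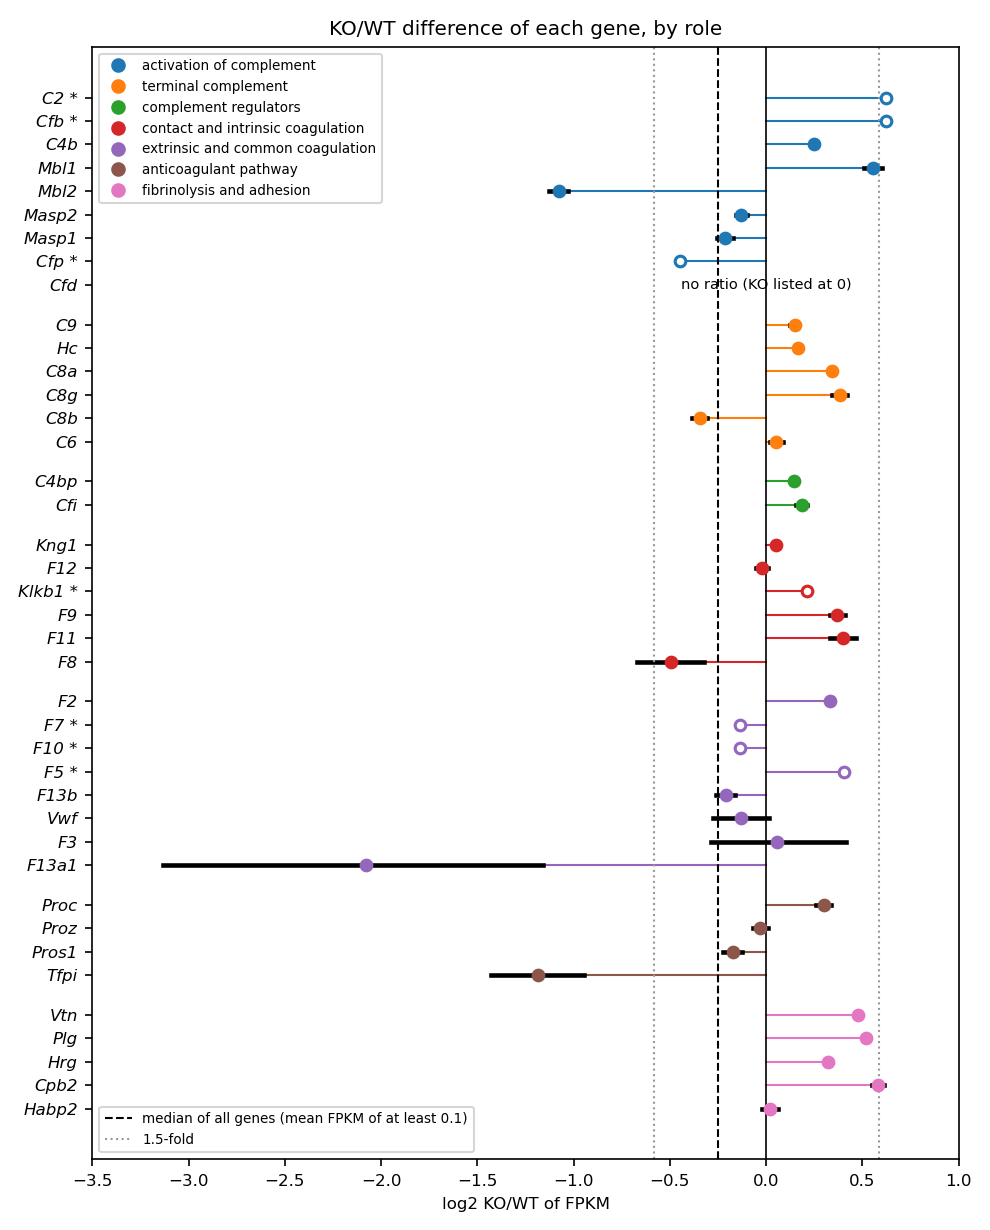
Log2 ratio of KO to WT FPKM for each gene by role, with black bars for the 95% counting interval, open points for joint loci without an interval, the median of all genes as a dashed line and 1.5-fold as dotted lines. All 5 genes of fibrinolysis and adhesion lie at or right of 0, while Mbl2, Tfpi and F13a1 lie left of the 1.5-fold line; points between the dashed line and 0 turn to the right of 0 when the ratios are centred.

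The summed FPKM of the member loci was 6668 in WT and 8004 in KO liver, a ratio of 1.20, and made up 1.22% and 1.45% of all FPKM. The 5 most abundant loci (Vtn, Kng1, Plg, F2 and Hrg) held 2962 and 3803 of this. Without Vtn the ratio was 1.17. Of the 32 members with a locus of their own and fragments in both libraries, 18 had a counting interval above 1, 9 had one below 1, and 5 (F3, F12, Proz, Vwf and Habp2) had one that holds 1.

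The members of low level are given apart. The 6 members of mean FPKM under 20 (Cfd, F3, F8, F13a1, Vwf and Tfpi) had a median log2 difference of -0.78, with 1 higher and 5 lower, and their summed FPKM was 6.97 in WT and 4.81 in KO liver. Of 12576 genes of mean FPKM from 0.1 to under 20, 75.9% were lower, with a median of -0.27, so the count of 5 in 6 is near the share of all such genes. The 34 others had a median of 0.18. Over all genes of mean FPKM 0.1 or more 74.8% were lower, and the counts of marker genes are to be read beside this share. Endothelial markers had 7 of 8 lower, with a median of -0.61 and a summed FPKM of 62.5 and 44.9. Kupffer cell markers had 7 of 8 lower (-0.79, 56.9 and 36.5), and monocyte markers 5 of 5 (-1.20, 19.97 and 7.70). Stellate cell markers had 7 of 7 lower (-0.57, 93.3 and 61.2), and cholangiocyte markers 5 of 5 (-0.57, 29.8 and 25.7). Neutrophil markers had 2 of 3 lower, at 12.9 and 6.93 FPKM with Camp and Mpo at 0 in both libraries. Megakaryocyte and platelet markers had 2 of 4 lower, at 2.57 and 1.67 FPKM.

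Hepatocyte markers were abundant in both libraries, as the labelled tissue asks. Of 9 measured markers 6 were higher in the KO library, with a median of 0.19 and a summed FPKM of 13902 and 14324, while Alb was marked HIDATA. Of the 5 adipocyte markers Lep was at 0 in both libraries and Adipoq, Plin1 and Retn were at 0.0791 FPKM or below, so that Cidec alone was measured (3.08 and 7.84 FPKM). The part of these markers in the values of the members was not tested. In bulk tissue fewer cells of a type and less RNA per cell cannot be told apart.

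**Figure D4:**
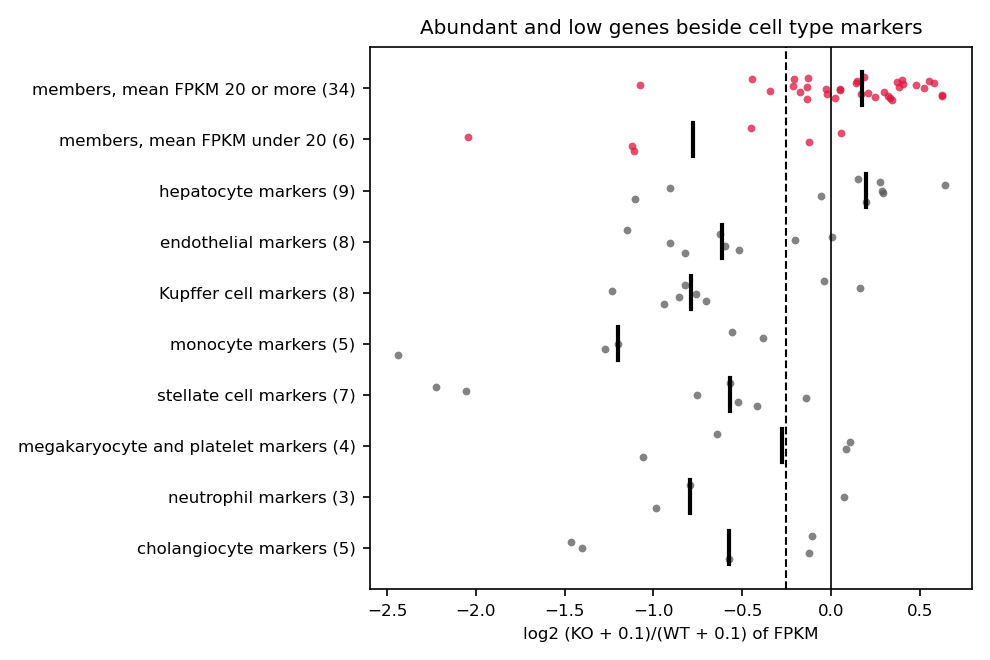
Log2 difference of KO and WT FPKM (with 0.1 added to both) for the members of high and low level and for marker genes of liver cell types, 1 point per gene, with a bar at each median, the number of genes in brackets and a dashed line at the median of all genes. The low members ran from -2.04 to 0.055, with a median of -0.78. Marker medians were -0.79 for Kupffer cells and neutrophils, -0.61 for endothelial cells, and -0.57 for stellate cells and cholangiocytes. Those of monocytes and of megakaryocytes and platelets were -1.20 and -0.28. The abundant members had a median of 0.18 and the hepatocyte markers one of 0.19, with single hepatocyte markers from -1.10 to 0.64. The part of cell types was not tested.

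Other genes of these pathways were listed for context. Of 24 measured complement genes outside the list 10 were higher and 14 lower in the KO library, with a median log2 difference of -0.30. C1ra, C1rb and C1rl, each counted as higher, shared a single locus, and with joint loci left out the median was -0.56. More than 1.5-fold, 5 complement genes were lower and 1 was higher among the 17 whose mean FPKM reached 1, against 19.9% and 4.2% of all genes. Among the most abundant were Clu (916 and 1022 FPKM), Serping1, the C1 inhibitor (288 and 389), and the C1s locus (126 and 147). The largest folds among these 17 were those of Colec10, a collectin, with 4.05 FPKM in WT and 1.56 in KO liver, and of Vsig4, a complement receptor of Kupffer cells, with 6.84 and 3.53.

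Of 23 measured coagulation genes outside the list 10 were higher and 13 lower in the KO library, with a median of -0.022 that turned positive under the same scalings. More than 1.5-fold, 1 was lower and 5 were higher among the 17 whose mean FPKM reached 1, against 19.9% and 4.2% of all genes. The fibrinogen chains were the most abundant, with 2531 FPKM in WT and 4851 in KO liver for Fga, 2698 and 4534 for Fgb, and 2375 and 4444 for Fgg. The 3 chains thus had ratios of KO to WT of 1.92, 1.68 and 1.87, above that of each member. Pzp, a broad protease inhibitor, had 855 and 1640 (ratio 1.92). F2r, a thrombin receptor, had 14.1 and 5.90 (WT to KO 2.40).

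None of 12 hepatocyte transcription factors passed 1.5-fold, against 19.9% of all genes lower and 4.2% higher. Their median log2 difference was -0.043, with 5 higher and 7 lower in the KO library, and this median turned positive with equal upper quartiles or centring. Hnf4a, which binds many clotting gene promoters, had 172 FPKM in WT and 193 in KO liver. The authors' software marked the comparison of Hnf4a as failed. Cebpb had 75.8 and 59.8 FPKM, Stat3 55.3 and 50.9, and Cebpa 60.1 and 45.8. Foxa1 (5.68 and 4.10) and Prox1 (15.2 and 20.4) had the largest ratios, 1.38 for WT to KO and 1.35 for KO to WT.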

How the data were processed

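Liver RNA was sequenced as 1 WT and 1 KO library on an Illumina instrument, and the sources differ on whether reads were single or paired end. The authors aligned the reads to mm9 with TopHat (TopHat2 2.0.0 in the submitters' processing notes), assembled transcripts with Cufflinks 1.3.0 and ran Cuffdiff, and they deposited 1 FPKM per locus and library. The sources do not state whether quartile normalization was applied. The deposited table also holds the authors' comparison (log2 fold change, test statistic, p-value, q-value and a significance mark), which was not used. Ratios come from the unscaled deposited values.

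Loci were split at commas, rows of a symbol were summed, and HIDATA loci were left out. Of the 38016 loci, 850 name several symbols. Counts used a mean FPKM of at least 1. Medians used log2 with 0.1 FPKM added, so that folds of low genes are understated, and a mean FPKM of at least 0.1. The interval of a median (about 95%) comes from binomial order statistics over genes. Counting intervals are exact (Clopper-Pearson, 95%) from fragments estimated from the FPKM and the longest annotated transcript. The estimate also used 447 (WT) and 429 (KO) low values among 4017 single-exon genes over 300 nt. Where a shorter transcript is the one expressed, fragments are overstated and these intervals are too narrow. Sequence sharing, coordinates (counted from 1) and overlaps are from NCBIM37 with GENCODE vM1, and 31 members had a promoter in the RefSeq table. All members were named. Of each context list the 4 genes of highest mean FPKM and the 2 of largest fold were named. The results of some genes of these lists are not reported here. The members and lists were chosen with earlier results of these data known. The vitamin K, FPKM of 20 and Ppard distance groups, the overlapping genes named and the alternatives without chromosome 17 or with each locus counted once were chosen after the values were seen. Steps were tested on simulated data. Scripts ran on scipy 1.17.1, pandas 2.3.3, matplotlib 3.10.9, numpy 2.4.6 and Python 3.11.15.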

Additional observations from a re-analysis of the deposited data

How the results depend on the processing

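With 1 library per genotype, no error between mice can be given and every ratio compares these libraries only. No leave-one-out analysis was possible because each genotype has 1 library. No paired analysis was possible because each genotype has 1 library and no result comes from a test. Scaling moved most values. With equal upper quartiles and with centring on the median of expressed genes, the median log2 difference of all members was 0.30 and 0.34, of the regulators 0.37 and 0.40, of fibrinolysis and adhesion 0.68 and 0.72, and the ratio of summed FPKM 1.38 and 1.42. The medians of activation (0.073 and 0.11), extrinsic and common coagulation (0.066 and 0.10), anticoagulant genes (0.10 and 0.14), other coagulation genes (0.18 and 0.22) and transcription factors (0.16 and 0.20) turned from negative to positive, and the terminal genes reached 0.40 with centring. Scaling shifts each log2 difference by 1 amount, so these moves follow from its construction. The members more than 1.5-fold higher then numbered 8 and 10, and those more than 2-fold lower 0 and 0. With a mean FPKM of at least 1, Cfd and F13a1 were left out of the members, and 17 of the 23 other coagulation genes remained. The medians of activation and of other coagulation genes then became 0.059 and 0.17. When both libraries had to reach 1 FPKM, which left out Tfpi, 1 member was more than 1.5-fold and 1 more than 2-fold lower. With joint loci left out, which removed C2 and Cfb, 0 members were more than 1.5-fold higher. Counting each locus once and leaving out the members on chromosome 17, both chosen after seeing the data, gave medians of 0.10 and 0.052. Equal sums of FPKM, the other pseudocounts, the row of highest mean, no filter on low FPKM and leaving out Vtn moved no count by over 1.5 times and turned no median or sum.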
